A study of Mus musculus with 8 samples.

Results

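The genes described here are 42 genes of mitosis and the G2/M transition: mitotic kinases and cyclins with their cofactors, and genes of the spindle checkpoint, kinetochore, spindle, mitotic chromosomes and cytokinesis. They were taken by symbol from the 24346 gene symbols with a value in each of 8 RNA-sequencing libraries, and all 42 were found and passed the expression filter (an FPKM of 1 or more in 2 or more libraries, met by 12003 genes). Hematopoietic stem cells (HSCs; Lin- Sca-1+ c-Kit+ CD48- CD150+) and LSK cells (Lin- Sca-1+ c-Kit+), both from the bone marrow of wild-type mice, were cultured for 1 day alone or with red blood cells (RBCs), giving 4 groups of 2 libraries, where control cells are those cultured without RBCs. Per the study's methods the mice were C57BL/6 animals of 8 to 20 weeks of either sex, the serum-free medium held thrombopoietin and stem cell factor in all 4 groups, and the RBCs came from mouse blood that had been filtered to remove leukocytes and irradiated. After culture the RBCs were lysed and CD45-positive cells were sorted for each library. The surface gates for HSCs and LSK cells were set before culture, so a library holds whatever CD45-positive cells the culture contained after 1 day, and the LSK gate takes in both HSCs and multipotent progenitors. The labels do not say whether the 2 libraries of a group came from separate mice or cultures, so the p-values measure only the spread between these libraries.

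A dividing cell enters mitosis when cyclin-dependent kinase 1, bound to a B-type cyclin, becomes active. The chromosomes then condense and attach to the spindle through their kinetochores, and the spindle checkpoint holds the anaphase-promoting complex in check until every chromosome is attached. Once that complex is released it marks cyclin B and securin for destruction, sister chromatids part and the cell divides. Many of these genes are transcribed late in the cycle under the control of the MuvB complex, and their promoters often carry CCAAT boxes, bound by NF-Y, and the cell cycle genes homology region. Most HSCs in bone marrow are out of cycle, and they are driven into it by cytokines in culture.

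Promoter sequence was available from RefSeq (GRCm38.p6) for 34 of the 42 genes, as 37 windows of 300 bases running from 250 before the transcription start to 50 after it. The 6 promoters below belong to genes that passed a test in at least 1 comparison, and they were picked with the values known. Ube2c, Cdc20, Ccnb1 and Cks2 passed as higher in LSK cells than in HSCs without RBCs. Cdk1 and Cks1b passed as higher in HSCs than in LSK cells with RBCs in culture, and did not pass without RBCs. Each line gives the 150 bases before the RefSeq start, 5' to 3' on the strand of the gene, with capitals marking CCAAT boxes (letters CCAAT or the reverse complement ATTGG) and the homology region letters (TTTGAA or the reverse complement TTCAAA, and the palindrome TTTAAA).
Ube2c (chr2:164769779-164769928, plus strand): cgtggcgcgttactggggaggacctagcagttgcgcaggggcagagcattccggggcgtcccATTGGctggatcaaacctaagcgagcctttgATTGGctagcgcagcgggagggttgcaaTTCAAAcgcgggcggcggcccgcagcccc
Cdc20 (chr4:118437344-118437493, minus strand): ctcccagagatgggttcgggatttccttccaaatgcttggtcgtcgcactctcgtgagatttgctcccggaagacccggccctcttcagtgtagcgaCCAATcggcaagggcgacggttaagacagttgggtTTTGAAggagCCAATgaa
Ccnb1 (chr13:100786487-100786636, minus strand): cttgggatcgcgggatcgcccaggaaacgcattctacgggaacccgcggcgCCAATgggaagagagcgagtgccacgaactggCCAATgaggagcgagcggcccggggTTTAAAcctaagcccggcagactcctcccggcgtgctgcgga
Cks2 (chr13:51645082-51645231, plus strand): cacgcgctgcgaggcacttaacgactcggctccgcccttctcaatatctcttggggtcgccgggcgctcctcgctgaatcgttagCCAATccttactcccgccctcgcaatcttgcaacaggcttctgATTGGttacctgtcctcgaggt
Cdk1 (chr10:69352913-69353062, minus strand): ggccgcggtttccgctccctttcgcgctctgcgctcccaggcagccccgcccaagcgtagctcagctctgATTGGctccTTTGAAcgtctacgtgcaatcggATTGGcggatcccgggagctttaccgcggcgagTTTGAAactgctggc
Cks1b (chr3:89418292-89418441, minus strand): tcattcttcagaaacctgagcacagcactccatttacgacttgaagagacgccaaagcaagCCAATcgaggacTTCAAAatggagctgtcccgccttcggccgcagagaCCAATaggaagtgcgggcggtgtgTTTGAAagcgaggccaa
Each of the 6 shown stretches held 2 CCAAT boxes. Ube2c and Cdc20 had 1 TTTGAA each, Cdk1 and Cks1b had 2 each, Ccnb1 had 1 TTTAAA, and Cks2 had neither in these letters. Over the 37 full windows, CCAAT was present in 29 (78.4%) on either strand, against 37.4% of the 32851 mouse promoter windows of the same length. TTTGAA was present in 27 (73.0%, against 17.9%) and TTTAAA in 9 (24.3%, against 13.2%), while both CCAAT and TTTGAA were found in 24 (64.9%, against 6.95%). Bub3, Ect2 and Prc1 each had 2 overlapping windows, all with CCAAT and TTTGAA, so these genes count more than once in the shares. A match of letters is a description of the window and does not show binding. No entry was found for Ccna2, Cdc25c, Foxm1, Aurkb, Incenp, Tpx2, Smc4 and Kif20a.

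FPKM (fragments per kilobase of transcript, scaled to the mapped fragments of the library) is a value per length, so levels of different genes can be compared. The FPKM values of a library summed to between 680942 and 752107, and 14829 to 16551 genes stood above 0. Absolute depth is unknown, but relative depth, read from recurring steps among low genes, lay between 0.886 and 1.13. For 12 of the 42 genes whole reads could be recovered, from 106 for Cdc25c in the shallowest case to 909, where the counting error at 106 reads is 9.7%. These read numbers are lower bounds and cover counting error only. Across genes, Pearson's r was 0.979 to 0.983 within groups and at most 0.980 between groups. The labelled cell types carried their defining genes: Kit and Ly6a (Sca-1) were present in all 8 libraries, Slamf1 (CD150) was 5.5 to 10.7 FPKM in HSC libraries and 3.09 to 4.63 in LSK libraries, and Cd48 was 16 to 42.7 and 124 to 184. Flt3, a gene of multipotent progenitors, was 15.4 to 22.5 FPKM in HSC libraries and 89.1 to 101 in LSK libraries.

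All 42 genes were expressed in every library, and the differences between groups were small beside the differences between genes. Cks1b, which encodes a small subunit of cyclin-dependent kinases, had the highest mean over the 8 libraries at 308 FPKM, followed by its close relative Cks2 at 216 and the checkpoint gene Bub3 at 144. Cenpf, a large kinetochore protein, had the lowest mean at 3.40 FPKM, and Ect2, an activator of the cytokinesis machinery, stood at 4.75. Summed over the 42 genes, FPKM was 1721 and 1795 in HSCs without RBCs, 1862 and 1931 in HSCs with RBCs, 1924 and 1855 in control LSK cells, and 1860 and 1799 in LSK cells with RBCs. Both HSC libraries with RBCs lay above both without, while the LSK groups overlapped. The median gap between the 2 replicates of a gene, on the log2(FPKM + 1) scale used for all tests, was 0.135 in HSCs without RBCs, 0.0755 in HSCs with RBCs, 0.124 in control LSK cells and 0.0926 in LSK cells with RBCs. This scale understates the change of genes with low FPKM. In bulk samples, fewer cells of a type and less RNA per cell cannot be told apart.

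**Figure D1:**
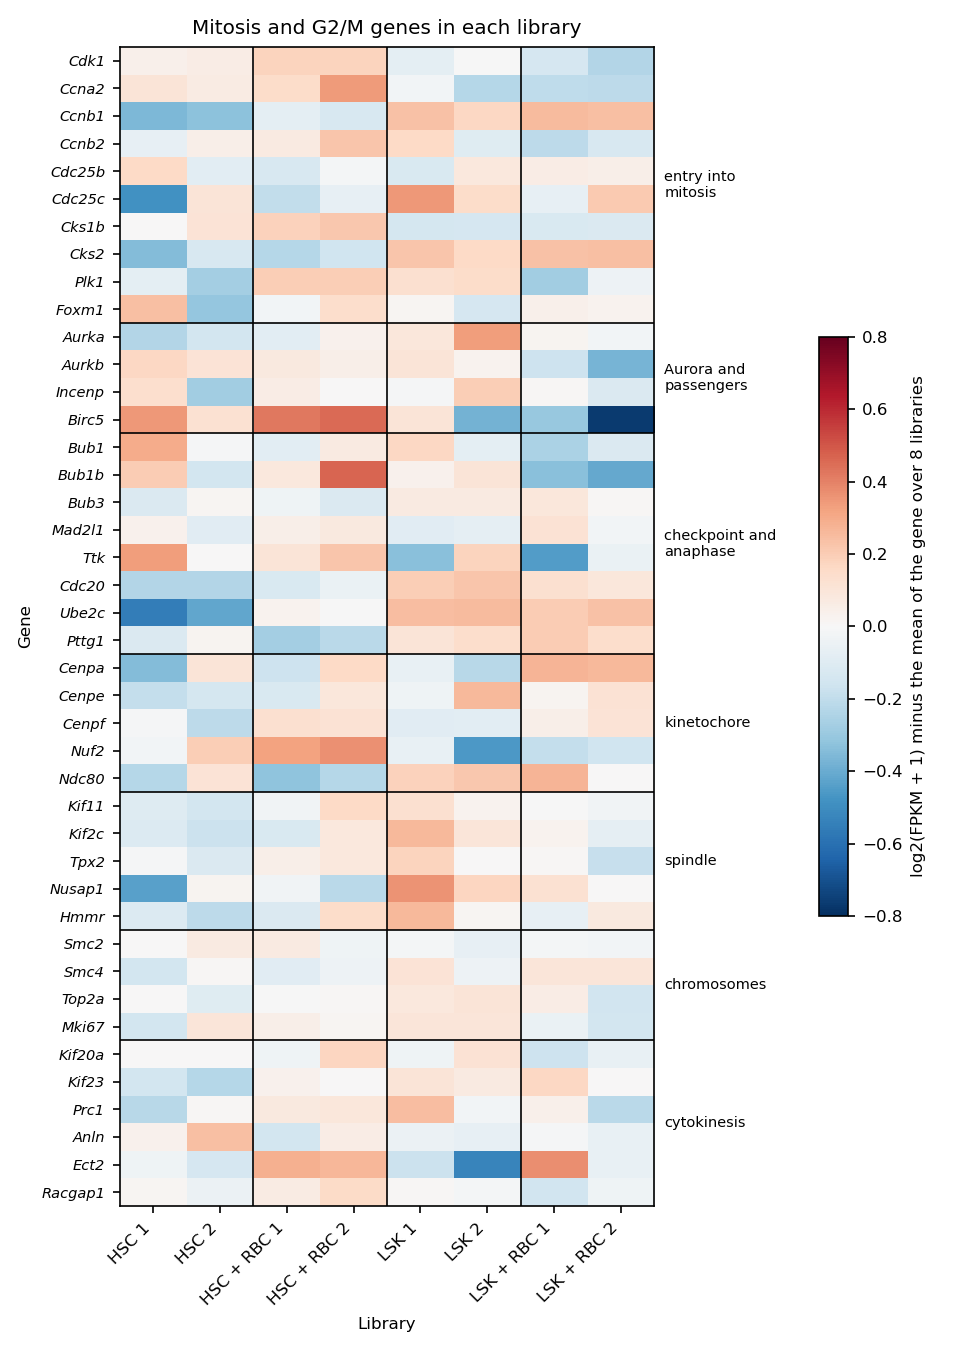
Heat map of the 42 genes (rows, by role) in the 8 libraries (columns), coloured by log2(FPKM + 1) minus the mean of the gene over the libraries. Ccnb1, Cks2 and Cdc20 lie below their means in all 4 HSC libraries and above them in all 4 LSK libraries, Ccna2 runs the other way, and the largest single step below a gene's mean is Birc5 in the second LSK library with RBCs.

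The first question was whether RBCs shift these genes in HSCs. Only Ube2c, the ubiquitin-conjugating enzyme that works with the anaphase-promoting complex, passed the test (limma with Benjamini-Hochberg adjustment over 12003 genes, adjusted p under 0.05), and 0 did with the further condition of a 2-fold change (against 0.633% of all genes as higher and 0.142% as lower). Over all genes tested, 1.57% passed as higher and 0.958% as lower, so 1 of 42 (2.38%) is near that share. At an unadjusted p under 0.05 there were 4 higher (Ccnb1, Cks1b, Plk1 and Ube2c, against 6.76% of all genes) and 1 lower (Pttg1, against 6.91%). The log2 difference was above 0 for 33 of the 42 (78.6%), against 48.2% of all genes, with a median of 0.12 against -0.01. The count was 30 to 36 of the 42 under 3 other scalings and with each library left out in turn. The share of all genes above 0 then ran from 48.0% to 55.9%, and the 36 and the 55.9% were both on a TPM scale. Between replicates of the same group such counts were uneven too. The second library lay above the first for 22 of the 42 in HSCs without RBCs and 29 with RBCs (50.1% of all genes in both). In LSK cells it did so for 17 without RBCs (50.9%) and 14 with RBCs (49.3%). The share of all genes therefore does not measure how far a count over these 42 genes varies between libraries. In 20 of the 42 both libraries with RBCs lay above both without (47.6%, against 19.9% of all genes), and in 2, Aurkb and Pttg1, both lay below (against 21.8%). With 2 libraries against 2, an exact permutation test of 1 gene cannot give a p below 0.333, so every call rests on the spread shared across genes.

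In LSK cells, 0 of the 42 passed in either direction (limma), against 2.32% of all genes as higher and 1.13% as lower, or 0.9% and 0.108% with a 2-fold change. At an unadjusted p under 0.05, 2 were higher (Cenpa and Ect2, against 9.52% of all genes) and 4 lower (Plk1, Aurkb, Birc5 and Bub1b, against 9.04%), and the lowest adjusted p was 0.070, for Aurkb. The log2 difference was above 0 for 14 of 42 (33.3%), against 48.0% of all genes, and the median was -0.09 against -0.01. Other scalings and leaving out each library gave 13 to 17 of the 42, against 45.6% to 54.7% of all genes. The second LSK library with RBCs lay above the first for 14 of 42 as well, so replicates differed in direction as unevenly as the groups. The groups did not overlap in 9 genes as higher (21.4%, against 24.2%) and in 16 as lower (38.1%, against 26.4%). The range of the log2 difference over the 42 genes was -0.44 for Bub1b to 0.51 for Ect2, and in HSCs -0.21 for Ndc80 to 0.50 for Ube2c. For all 42 genes the 95% interval of the RBC effect lay within a 2-fold change either way in both cell types, on the log2(FPKM + 1) scale. It did so for 93.9% of all genes in HSCs and 93.5% in LSK cells. For genes with low FPKM, such as Ect2 in LSK cells (upper bound 0.92), a 2-fold change of FPKM itself can still lie inside the interval. These intervals are per gene and not adjusted for the number of genes.

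**Figure D2:**
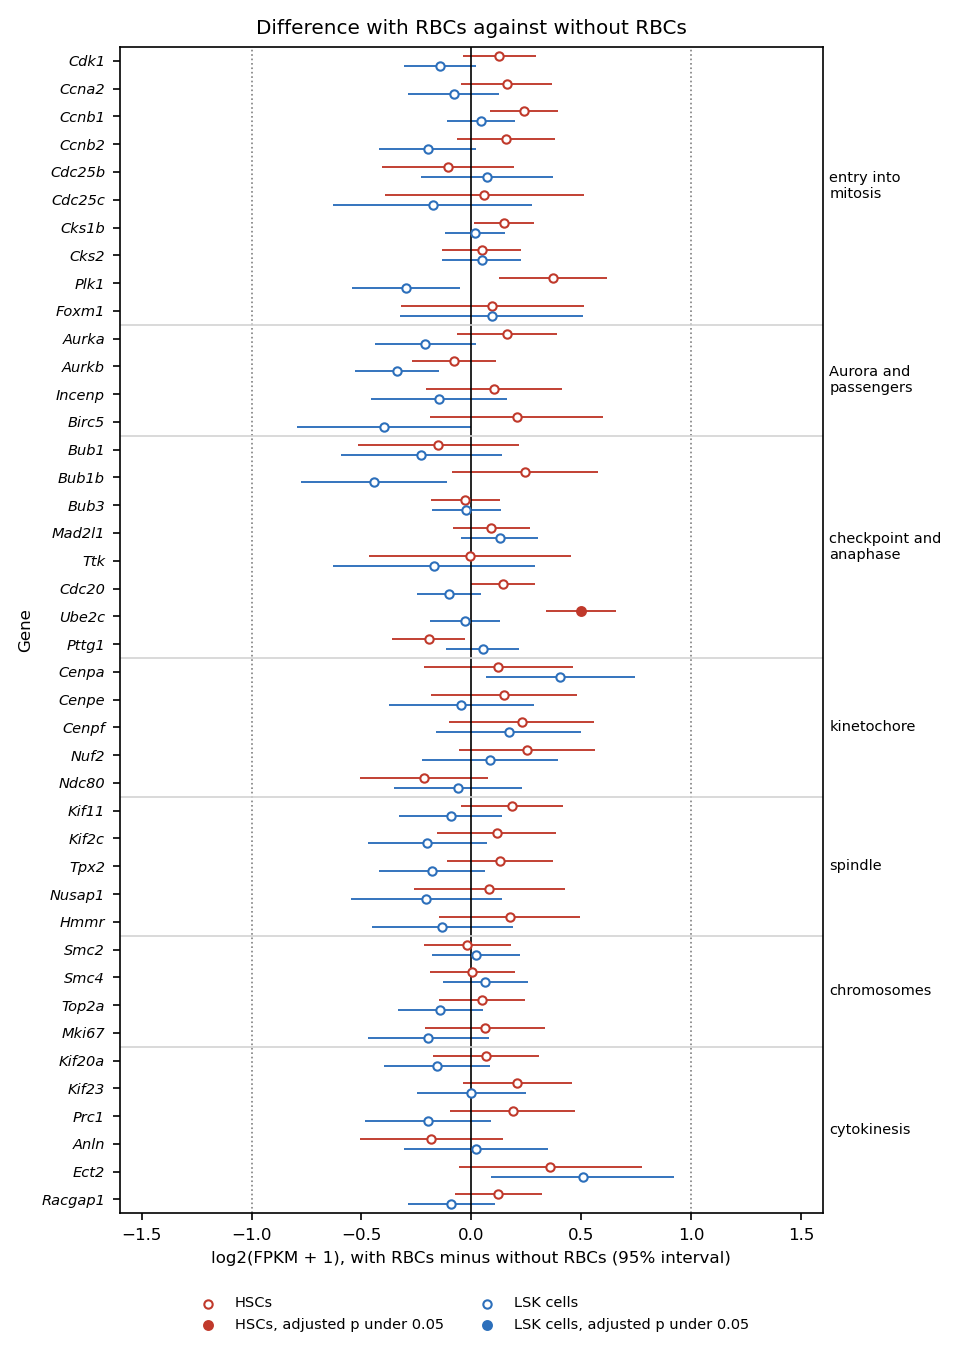
Log2 difference with RBCs minus without RBCs for each gene in HSCs (red) and LSK cells (blue), with 95% intervals and dotted lines at a 2-fold change. Ube2c in HSCs (log2 difference 0.50) is the one filled point past the adjusted threshold, and most red points lie right of 0 and most blue points left of it.

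Among the genes of entry into mitosis, 9 of 10 had a log2 difference above 0 with RBCs in HSCs (median 0.14, and 0.07 without the second HSC library with RBCs) and 5 of 10 in LSK cells (median -0.03, and -0.05 to -0.01 with a control LSK library left out), and 0 passed in either. Plk1, the polo-like kinase that drives mitotic entry and spindle assembly, was at 19.5 and 16.9 FPKM in HSCs without RBCs, 23.8 and 23.8 with RBCs, 22.6 and 22.9 in control LSK cells, and 16.8 and 20 in LSK cells with RBCs. Both HSC libraries with RBCs were above both without, and both LSK libraries with RBCs were below both without. Its RBC effect, as a log2 difference, was 0.37 (95% interval 0.13 to 0.62, adjusted p = 0.14) in HSCs and -0.30 (-0.54 to -0.05, adjusted p = 0.19) in LSK cells. Cdk1, the kinase itself, was at 49.2 and 50 FPKM in HSCs without RBCs, 54.4 and 54.2 with RBCs, 45.2 and 47.7 in control LSK cells, and 43.5 and 40.5 in LSK cells with RBCs. Its 4 groups did not overlap with one another, and the log2 difference was 0.13 in HSCs (adjusted p = 0.52) and -0.14 in LSK cells (adjusted p = 0.33). Ccnb1, the B-type cyclin that moves into the nucleus at mitotic entry, was at 43.7 and 44.8 FPKM in HSCs without RBCs and 53.3 and 51.5 with RBCs, which did not overlap. This gave a log2 difference of 0.24 (0.09 to 0.39, adjusted p = 0.13), and in LSK cells, at 66.7 and 63.5 without RBCs and 67.4 and 66.9 with RBCs, it was 0.04 (-0.11 to 0.20). Cks1b was at 307 and 331 FPKM in HSCs without RBCs, 349 and 357 with RBCs, and between 278 and 283 in all 4 LSK libraries. The HSC groups did not overlap (log2 difference 0.15, 0.01 to 0.28, adjusted p = 0.32).

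Ccna2, the cyclin of S phase and early mitosis, was at 63.1 and 61.4 FPKM in control HSCs, 65.1 and 74.5 in HSCs with RBCs, 57.7 and 50 in control LSK cells, and 50.9 and 50.6 in LSK cells with RBCs. All 4 HSC libraries lay above all 4 LSK libraries, and the RBC effect was 0.16 in HSCs and -0.08 in LSK cells. Ccnb2, the other mitotic B-type cyclin, was at 61.3 and 66.4 FPKM in control HSCs, 67.6 and 75.1 in HSCs with RBCs, 71.8 and 60 in control LSK cells, and 55.5 and 58.6 in LSK cells with RBCs. Its RBC effect was 0.16 in HSCs and -0.20 in LSK cells, without overlap in either. The phosphatases Cdc25b and Cdc25c, which remove the inhibitory phosphates from cyclin-dependent kinase 1, had values of -0.11 and 0.06 in HSCs and 0.07 and -0.18 in LSK cells. Foxm1, the transcription factor that activates G2/M genes, was at 7.06 and 4.50 FPKM in HSCs without RBCs and 5.73 and 6.53 with RBCs. Its replicates differed by more than the groups, and the log2 difference was 0.10 (-0.32 to 0.51) in HSCs and 0.09 in LSK cells.

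The Aurora kinases and their chromosomal passenger partners were the group with the lowest median in LSK cells. All 4 of its genes had a log2 difference below 0 there (median -0.27), against 1 of 4 in HSCs (median 0.13, with -0.01 without the second control HSC library and 0.21 without the first), and 0 passed. Aurkb, the kinase that corrects faulty attachments, was at 55.9 and 53.1 FPKM in control LSK cells and 46.2 and 39.9 in LSK cells with RBCs, against 58.5 and 56.2 in HSCs without RBCs and 54.9 and 53.6 with RBCs. Both cell types were lower with RBCs in both libraries, with log2 differences of -0.34 (-0.53 to -0.15, adjusted p = 0.070) and -0.08 (-0.27 to 0.11). Birc5, or survivin, a passenger subunit that brings Aurora B to the centromere, was at 87.9 and 62.7 FPKM in LSK cells without RBCs, 66.0 and 47.7 with RBCs, 104 and 89.0 in HSCs without RBCs, and 110 and 112 with RBCs. The second LSK library of each condition lay well below the first, and the LSK groups overlapped. The log2 difference was -0.40 (-0.79 to 0.00, adjusted p = 0.27) in LSK cells and 0.21 (-0.19 to 0.60) in HSCs, and the LSK value ran from -0.64 without the second LSK library without RBCs to -0.16 without the first. Aurka, the centrosomal Aurora kinase, was at 23.9 and 25.5 FPKM in control HSCs, 26.6 and 29.0 in HSCs with RBCs, 30.2 and 35.9 in control LSK cells, and 28.8 and 27.9 in LSK cells with RBCs. Control HSCs were the lowest and control LSK cells the highest, with RBC effects of 0.16 and -0.21. Incenp, the scaffold of the passengers, had RBC effects of 0.10 in HSCs and -0.15 in LSK cells.

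Ube2c belongs to the spindle checkpoint and anaphase genes. It was at 48.9 and 54.0 FPKM in HSCs without RBCs, 73.9 and 72.2 with RBCs, 86.0 and 86.4 in control LSK cells, and 83.5 and 85.2 in LSK cells with RBCs. The HSC libraries without RBCs were the lowest 2 of the 8, those with RBCs were next, and the 4 LSK libraries were above both. In HSCs Ube2c rose 1.41-fold on this scale (log2 difference 0.50, 0.34 to 0.66, standard error 0.0706, limma adjusted p = 0.0069), and in LSK cells the difference was -0.03 (-0.19 to 0.13). With each library left out in turn the HSC difference was 0.43 to 0.57, and without the first HSC library with RBCs it no longer passed (adjusted p = 0.070). The values in HSCs rest on 519 and 470 recovered reads without RBCs and 697 and 771 with RBCs. An exon of Tnnc2 on the other strand overlaps an exon of Ube2c, and as the library kit does not mark strand the reads cannot be told apart there, but Tnnc2 was at 0 to 0.180 FPKM in the 8 libraries.

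Cdc20, the activator of the anaphase-promoting complex that the checkpoint restrains, was at 59.9 and 60.0 FPKM in HSCs without RBCs, 64.9 and 68.0 with RBCs, 81.3 and 82.7 in control LSK cells, and 77.4 and 75.5 in LSK cells with RBCs. No 2 groups overlapped, and the log2 difference was 0.15 (adjusted p = 0.37) in HSCs and -0.10 (adjusted p = 0.46) in LSK cells. Cdc20 shares exon bases with Elovl1 on the other strand, which was at 132 to 162 FPKM. Pttg1, or securin, the inhibitor of the enzyme that cuts cohesin, ran the other way: 60.1 and 66.2 FPKM in HSCs without RBCs, 53.9 and 56.1 with RBCs, 70.2 and 72.1 in control LSK cells, and 75.5 and 72.1 in LSK cells with RBCs. The HSC groups did not overlap, and the LSK groups all but touched. Its log2 difference was -0.19 (-0.36 to -0.03, adjusted p = 0.27) in HSCs and 0.05 in LSK cells. Bub1b, which encodes the checkpoint protein BubR1, was at 27.2 and 21.1 FPKM in HSCs without RBCs, 24.9 and 32.8 with RBCs, 24.1 and 25.3 in control LSK cells, and 18.4 and 17.4 in LSK cells with RBCs. Here the HSC groups overlapped and the LSK groups did not, with log2 differences of 0.24 (-0.09 to 0.58) and -0.44 (-0.78 to -0.11, adjusted p = 0.15). The other checkpoint genes, Bub1, Bub3, Mad2l1 and Ttk, had differences from -0.15 to 0.09 in HSCs, and in LSK cells from -0.23 to 0.13.

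**Figure D3:**
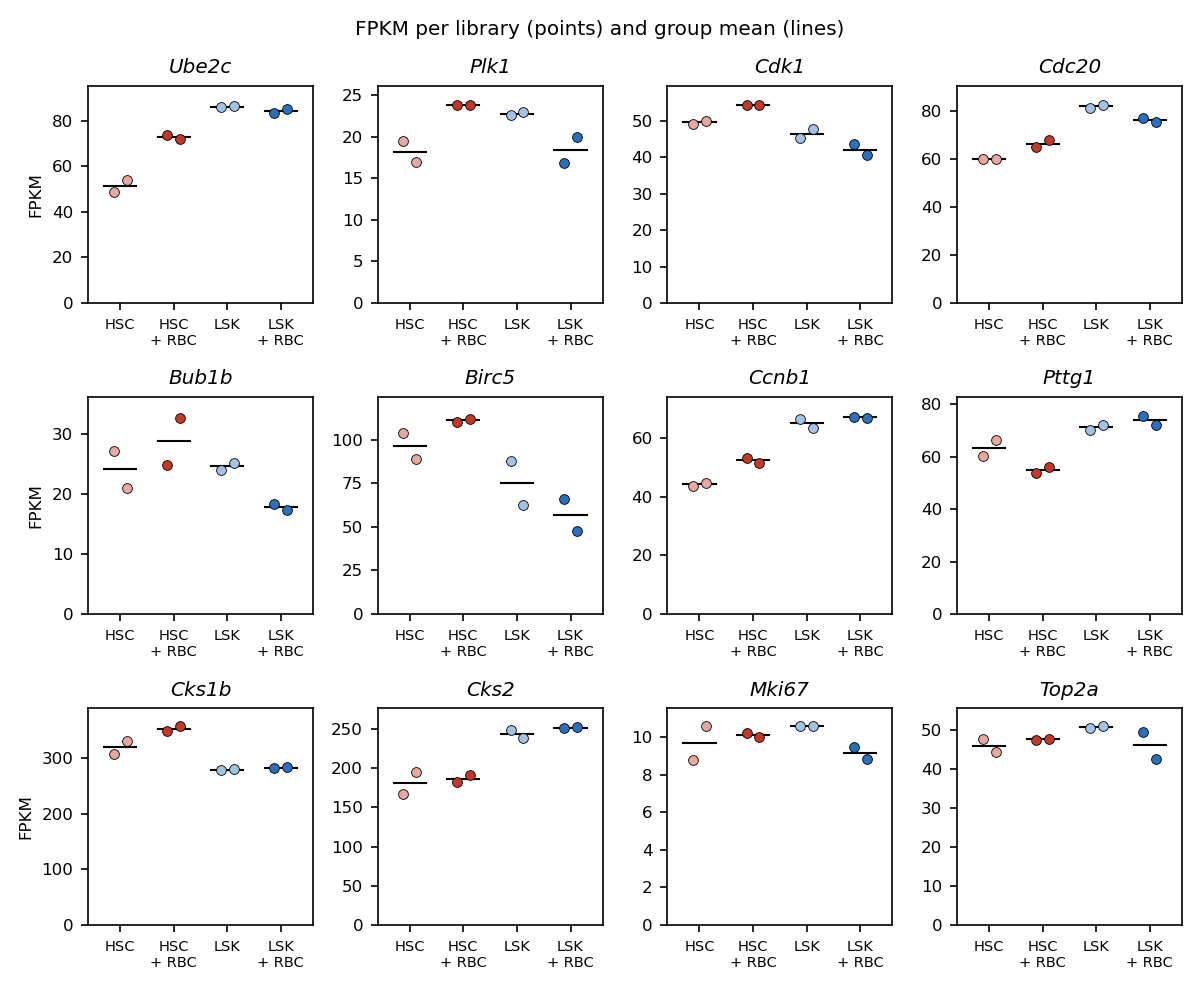
FPKM of 12 of the genes in each library (points; the black line is the group mean of 2 libraries), with each vertical axis starting at 0. Ube2c climbs from 48.9 and 54.0 in HSCs to 73.9 and 72.2 with RBCs and lies at 83.5 to 86.4 in LSK cells, while Top2a spans 42.7 to 51.2 over all 8 libraries.

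The centromere and kinetochore genes had medians of 0.15 in HSCs and 0.09 in LSK cells, with 4 of 5 and 3 of 5 above 0, and 0 passed. The HSC median was 0.25 without the first HSC library with RBCs and 0.04 without the second, and the LSK median 0.17 without the first control LSK library. Cenpa, the histone variant that marks centromeres, was at 49.4 and 44.1 FPKM in control LSK cells and 62.5 and 61.8 in LSK cells with RBCs, which did not overlap (log2 difference 0.41, 0.07 to 0.74, adjusted p = 0.19). In HSCs it was at 40.3 and 55.4 without RBCs and 45.9 and 57.8 with RBCs, so that the replicates differed by more than the groups. The outer kinetochore pair Ndc80 and Nuf2, which bind spindle microtubules in 1 complex, had log2 differences of opposite sign in HSCs. Ndc80 was at 22.1 and 28.2 FPKM in HSCs without RBCs and 20.7 and 22.1 with RBCs (-0.21, -0.51 to 0.08), and Nuf2 at 17.8 and 20.9 without RBCs and 22.8 and 23.6 with RBCs (0.25, -0.06 to 0.57). In LSK cells Ndc80 was at 29.8 and 30.4 FPKM without RBCs and 31.7 and 26.2 with them (-0.06), and Nuf2 at 17.3 and 12.9 without and 15.7 and 16.1 with them (0.09), so both pairs of groups overlapped. Cenpf was at 3.35 and 2.79 FPKM in control HSCs, 3.79 and 3.75 in HSCs with RBCs, 3.12 and 3.13 in control LSK cells, and 3.54 and 3.74 in LSK cells with RBCs. It lay higher with RBCs in both cell types without overlap (0.23 and 0.17, adjusted p = 0.57 and 0.59). Cenpe, a kinetochore motor, had differences of 0.15 in HSCs and -0.05 in LSK cells.

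For the spindle genes the log2 differences had opposite signs in the 2 cell types. All 5 were above 0 in HSCs (median 0.13) and all 5 below 0 in LSK cells (median -0.18), with 0 past the test. Of all genes tested, 22.8% had these signs. The interval of each of the 5 genes included 0 in both cell types. The groups overlapped for Kif2c, Nusap1 and Hmmr in HSCs and for Tpx2 and Hmmr in LSK cells. Nusap1 was at 13.9 and 19.5 FPKM in HSCs without RBCs and 18.8 and 16.4 with RBCs. Only Kif11 was without overlap in both cell types. With single libraries left out the HSC median ran from 0.09, without the second HSC library with RBCs, to 0.22, without the first. The LSK median ran from -0.26, without the second control LSK library, to -0.09, without the first. Kif11, the motor that pushes spindle poles apart, was at 15.3 and 14.8 FPKM in HSCs without RBCs, 16.1 and 18.5 with RBCs, 18.1 and 16.8 in control LSK cells, and 16.4 and 16.1 in LSK cells with RBCs. Kif2c, a motor that dismantles microtubules, Tpx2, the activator of Aurora A, Nusap1 and Hmmr, both spindle-associated proteins, had differences of 0.08 to 0.17 in HSCs and -0.20 to -0.13 in LSK cells. Of the genes of mitotic chromosomes, the condensin subunits Smc2 and Smc4 had differences between -0.02 and 0.06 in the 2 cell types, Top2a, which untangles sister DNA, 0.05 in HSCs and -0.14 in LSK cells, and Mki67, the proliferation antigen Ki-67, 0.06 and -0.19. Mki67 was at 8.79 and 10.6 FPKM in HSCs without RBCs, 10.2 and 9.99 with RBCs, 10.6 and 10.6 in control LSK cells, and 9.47 and 8.82 in LSK cells with RBCs. Its groups overlapped in HSCs and not in LSK cells.

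In cytokinesis, 5 of 6 genes were above 0 in HSCs (median 0.16) and 2 of 6 in LSK cells (median -0.05, and -0.01 without the second LSK library with RBCs), and 0 passed. Ect2 was at 4.51 and 4.15 FPKM in HSCs without RBCs, 5.87 and 5.79 with RBCs, 4.01 and 2.92 in control LSK cells, and 6.32 and 4.43 in LSK cells with RBCs. Both cell types had both libraries with RBCs above both without, with log2 differences of 0.36 (-0.06 to 0.78, adjusted p = 0.46) and 0.51 (0.09 to 0.92, adjusted p = 0.19). Anln, a scaffold of the contractile ring, was at 5.17 and 6.14 FPKM in control HSCs, 4.45 and 5.29 in HSCs with RBCs, and 4.77 to 4.99 in the 4 LSK libraries. The HSC groups overlapped, and the differences were -0.18 (-0.51 to 0.14) in HSCs and 0.02 in LSK cells. Of the rest, Prc1, Kif20a, Kif23 and Racgap1, which build the central spindle, had 0.07 to 0.21 in HSCs and -0.20 to 0.00 in LSK cells.

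The second question was whether the RBC effect differed between the cell types. In a direct test of that difference, taken as the log2 effect in HSCs minus that in LSK cells, 0 of the 42 genes passed (limma), against 0.05% and 0.0833% of all genes as higher and lower, or 0.0333% and 0.075% with a 2-fold change. At an unadjusted p under 0.05, 8 were higher (Cdk1, Ccnb2, Plk1, Aurka, Birc5, Bub1b, Cdc20 and Ube2c, 19.0%, against 5.99% of all genes) and 1 lower (Pttg1, against 6.53%). The difference was above 0 for 32 of 42 (76.2%, against 50.2%), with a median of 0.21 against 0. Under other scalings and with each library left out it was above 0 for 28 to 33 of 42, against 49.9% to 52.0% of all genes. The uneven counts between replicates given above limit this count too. Medians above 0 were also found in the lists of related genes given below. The lowest adjusted p was 0.095, for Ube2c (difference 0.53, 0.30 to 0.75), and the largest difference was 0.69 for Bub1b (0.22 to 1.16, adjusted p = 0.23), then 0.67 for Plk1 (0.32 to 1.02, adjusted p = 0.17) and 0.60 for Birc5 (0.04 to 1.16). For 39 of the 42 the 95% interval stayed within a 2-fold change either way, against 85.4% of all genes, and the exceptions were these 3. In 8 genes (Cdk1, Ccnb2, Plk1, Aurka, Cdc20, Ube2c, Kif11 and Racgap1) both HSC libraries with RBCs lay above both without while both LSK libraries with RBCs lay below both without, 19.0% against 3.72% of all genes. The opposite pattern was held by Pttg1 alone, against 4.07%. In the other direction Cenpa was at -0.28 (-0.76 to 0.20) and Pttg1 at -0.25 (-0.48 to -0.01). Without the second control HSC library they were at -0.06 and -0.18, and without the first at -0.51 and -0.32.

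The third set of comparisons set LSK cells against HSCs in each culture condition, in the same fit and sharing libraries with the RBC comparisons. Without RBCs, 5 of the 42 genes were higher in LSK cells (11.9%, against 6.93% of all genes) and 0 lower (against 7.29%), and 0 reached a 2-fold difference (against 1.62% and 1.03%). At an unadjusted p under 0.05 there were 10 higher (against 14.1%) and 3 lower (against 14.6%). The 5 past the adjusted threshold were Ube2c, Ccnb1, Cdc20, Cks2 and Aurka, with log2 differences of 0.73 (adjusted p = 0.00025), 0.55 (0.0011), 0.44 (0.0024), 0.43 (0.0078) and 0.40 (0.030). In each of them both LSK libraries lay above both HSC libraries. Cks2 and Aurka lost the threshold when some single library was left out (highest adjusted p = 0.052 and 0.18), and Ube2c, Ccnb1 and Cdc20 kept it throughout. With RBCs, 4 were higher (9.52%, against 11.9%) and 9 lower (21.4%, against 12.5%), and 0 reached 2-fold (against 2.61% and 1%). At an unadjusted p under 0.05 there were 6 higher (against 18.5%) and 10 lower (against 19.1%). The 4 higher past the adjusted threshold were Cks2 (0.43), Pttg1 (0.42), Ndc80 (0.41) and Ccnb1 (0.35), and the 9 lower were Birc5 (-0.97), Bub1b (-0.65), Nuf2 (-0.52), Ccna2 (-0.45), Cdk1 (-0.36), Plk1 (-0.36), Aurkb (-0.33), Cks1b (-0.32) and Ccnb2 (-0.32), with adjusted p-values from 0.0041 to 0.045. The number lower was 3 to 9 with each library left out, with 3 without the second LSK library with RBCs, and Ccnb1, Cks1b, Cks2, Birc5 and Pttg1 kept the threshold in every case. Birc5 was at -1.21, past 2-fold, without the first LSK library with RBCs and at -0.74 without the second. Ccnb1 and Cks2 were higher in LSK cells in both conditions, while Ube2c, with RBCs in culture, differed by 0.21 (0.05 to 0.36, adjusted p = 0.063). The median log2 difference over the 42 was 0.11 without RBCs and -0.04 with RBCs, against 0.01 for all genes in both conditions, and the second became 0.00 on a TPM scale. The log2 difference was above 0 for 27 of 42 without RBCs (against 51.4%) and for 16 with RBCs (against 50.9%). The 95% interval lay within a 2-fold difference for 42 genes without RBCs (against 89.5%) and for 41 with RBCs (against 87.4%), where Birc5 was the exception.

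**Figure D4:**
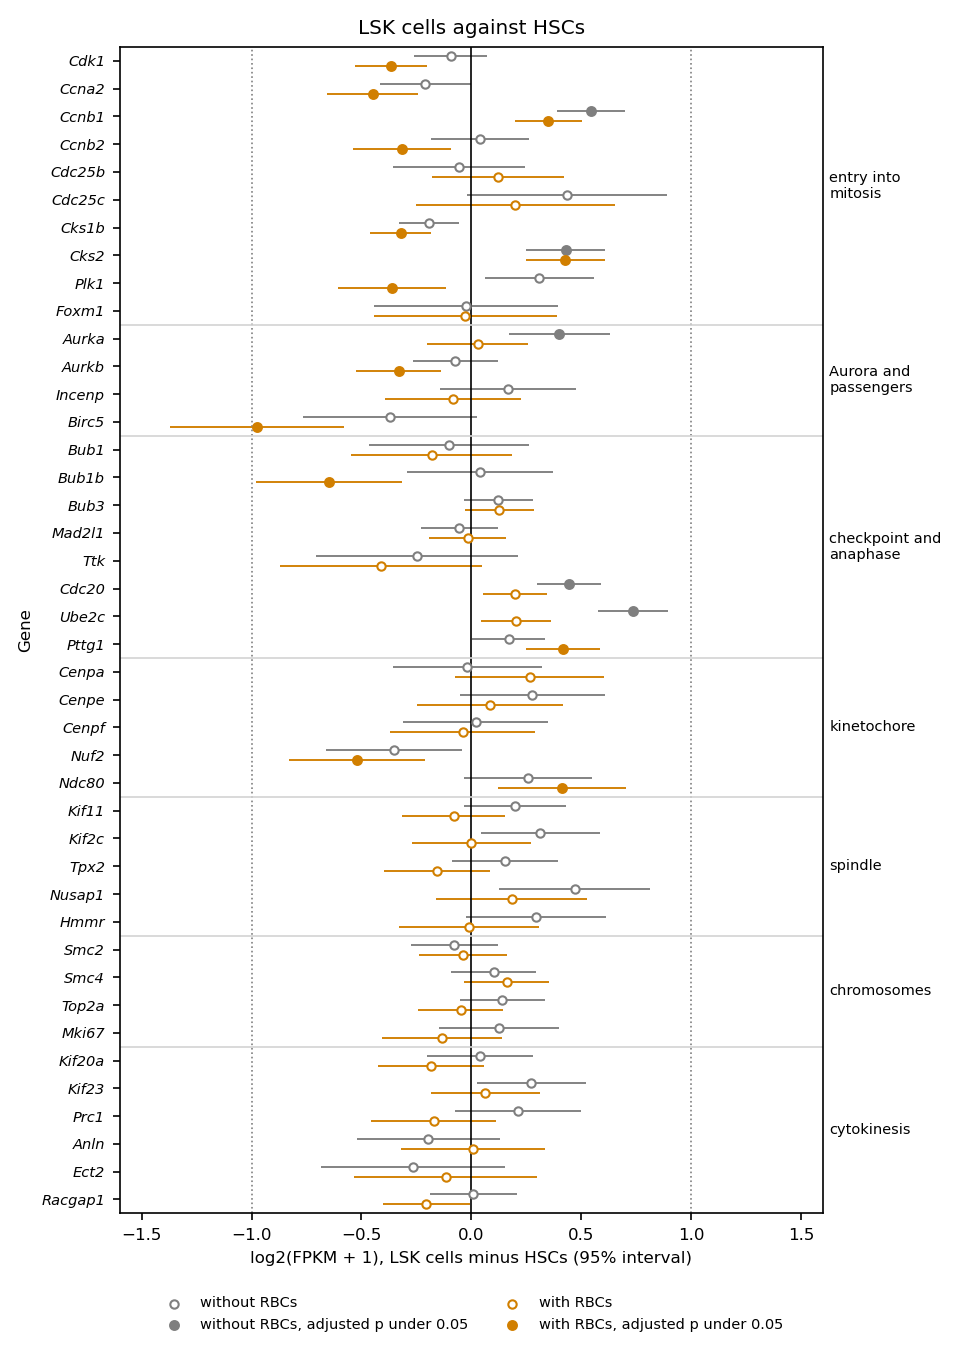
Log2 difference of LSK cells minus HSCs for each gene without RBCs (grey) and with RBCs (orange), with 95% intervals, filled points for adjusted p under 0.05 and dotted lines at a 2-fold difference. Ube2c and Ccnb1 lie furthest right without RBCs (0.73 and 0.55), and Birc5 lies furthest left with RBCs (-0.97).

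Genes that work together did not all differ between the cell types in the same direction. Cks2 was at 249 and 238 FPKM in control LSK cells and 251 and 252 in LSK cells with RBCs, and at 167 and 195, then 182 and 191, in HSCs. Cks1b ran the other way, so that the ratio of Cks2 to Cks1b was 0.849 to 0.896 in the 4 LSK libraries and 0.522 to 0.590 in the 4 HSC libraries, with no overlap. The ratio of Ccnb1 to Ccna2 was 1.16 to 1.32 in LSK libraries and 0.691 to 0.819 in HSC libraries, and that of Ccnb1 to Ccnb2 was 0.929 to 1.21 and 0.675 to 0.789. With RBCs, the first ratio was 0.522 and 0.535 in HSCs, below both controls (0.543 and 0.590), and 0.891 in both LSK libraries, within the control range. In LSK cells both libraries with RBCs lay above both controls for Ccnb1 to Ccnb2 (1.21 and 1.14 against 0.929 and 1.06) and for Ccnb1 to Ccna2 (1.32 in both against 1.16 and 1.27). These ratios were chosen after their values were seen and carry no test. Ccna2 overlaps Exosc9 on the other strand, which was at 42.2 to 56.6 FPKM, so the part of its reads that belongs to each is not known.

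Other genes of the same pathway, 131 in 6 lists of which 129 were tested, gave a comparison for the same samples. With RBCs in HSCs 0 of the 129 passed, and the differences furthest from 0 were, by list, 0.54 for Arhgap11a and 0.50 for Nek2 (spindle and cytokinesis), -0.48 for Dsn1 and 0.40 for Spdl1 (kinetochore), -0.44 for Lin52 and 0.37 for E2f8 (MuvB and DREAM), -0.25 for Smc1a and -0.24 for Rad21 (cohesin), 0.20 for Cdkn3 and 0.14 for Cdc25a (entry regulators), and 0.18 for Anapc15 and 0.17 for Anapc2 (anaphase-promoting complex). With RBCs in LSK cells 0 were higher and 5 lower (against 1.13% of all genes as lower). These 5 were Kntc1, a kinetochore protein of the checkpoint (-0.64, adjusted p = 0.045), Mybl2, a partner of the MuvB complex in activating G2/M genes (-0.57, adjusted p = 0.036), Spc24, a partner of Ndc80 and Nuf2 (-0.41, adjusted p = 0.028), Stmn1, which destabilises microtubules (-0.40, adjusted p = 0.015), and Anapc5, a subunit of the anaphase-promoting complex (-0.31, adjusted p = 0.030). Mybl2 fell from 23.0 and 27.1 FPKM to 17.7 and 15.3 in LSK cells, and stood at 28.5 and 25.7, then 25.8 and 29.2, in HSCs. In the direct test of the difference between cell types 0 of the 129 passed. The median difference was 0.16, with list medians from 0.09 (entry regulators) to 0.24 (MuvB and DREAM). The difference was above 0 for 29 of 34 spindle and cytokinesis, 25 of 35 kinetochore and 12 of 18 MuvB and DREAM genes. It was above 0 for 10 of 16 condensin and cohesin, 11 of 16 anaphase-promoting complex and 7 of 10 entry regulator genes. Between LSK cells and HSCs, 6 of the 129 were higher (against 6.93% of all genes) and 7 lower (against 7.29%) without RBCs, and 3 higher (against 11.9%) and 30 lower (against 12.5%) with RBCs. Of those that passed, Kntc1, Cenpm and Rbl1 had the lowest values with RBCs (-0.93, -0.92 and -0.88), and Gtse1, a G2-phase microtubule-binding protein, the highest (0.74, and 0.80 without RBCs). Of the 18 MuvB and DREAM regulators, which hold or release the transcription of cell cycle genes, 9 were lower in LSK cells with RBCs and 1 higher, Rb1 at 0.42.

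For comparison with an earlier phase of the cycle, 30 DNA replication and G1/S genes were read in the same fit. Their median log2 difference with RBCs was 0.06 in HSCs (1 higher, against 1.57% of all genes, and 0 lower) and -0.26 in LSK cells (0 higher and 7 lower, against 1.13% as lower), and between LSK cells and HSCs it was -0.27 without RBCs (12 lower, against 7.29%) and -0.60 with RBCs (27 lower, against 12.5%). The 42 mitosis genes had medians of 0.12, -0.09, 0.11 and -0.04 in the same comparisons. The HSC effect minus the LSK effect was above 0 for all 30 replication genes (against 50.2% of all genes) and 0 passed. Their median was 0.34, against 0.21 for the 42 mitosis genes. The difference between the 2 lists was not tested.

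Markers of other cells moved with RBCs in these libraries and are given here beside the results. The summed FPKM of 10 neutrophil markers was 8.54 to 10.6 in HSCs without RBCs and 46.4 to 254 with RBCs, and 129 to 221 and 365 to 572 in LSK cells. Mmp9 and Lcn2 were at 0 in both HSC libraries without RBCs. Of these 10, 2 passed as higher with RBCs in HSCs (median 0.99) and 3 in LSK cells (median 1.24), all by 2-fold. The 5 monocyte and macrophage markers used here summed to 89.3 to 111 and 106 to 111 in HSCs and 66.0 to 76.7 and 149 to 151 in LSK cells. Of the 3 tested, 1 passed as higher with RBCs in HSCs and 2 in LSK cells. Erythroid and red blood cell markers, 11 of 13 in the files, summed to 283 to 339 and 300 to 309 in HSCs and 112 to 179 and 121 to 185 in LSK cells, with Slc4a1 at 0 in both libraries of each group but LSK cells with RBCs. Of the 7 tested, 5 were above 0 with RBCs in HSCs (median log2 difference 1.43) and 3 passed as higher, all by 2-fold, while in LSK cells 5 were above 0 (median 0.67) and 1 passed, by 2-fold. The 8 platelet markers summed to 209 to 249, 219 to 244, 135 to 227 and 116 to 135 in HSCs without and with RBCs and LSK cells without and with RBCs. With RBCs, 6 of the 8 were above 0 in HSCs (median 0.39) and 2 passed as higher, 1 of them by 2-fold, and in LSK cells (median 0.15) 1 passed as lower, by 2-fold. The 11 HSC markers summed to 912 to 948 and 968 to 1150 in HSCs and 600 to 745 and 531 to 548 in LSK cells, but the sum in HSCs went with Ly6a (388 and 444 FPKM without RBCs, 719 and 544 with RBCs). By gene, 2 of 11 were above 0 with RBCs in HSCs (median -0.18), 2 passed as lower and 0 as higher, and Slamf1 was at 10.2 and 10.7 FPKM without RBCs and 5.5 and 6.59 with RBCs. In LSK cells their median was -0.12, with 0 passed. The 4 multipotent progenitor markers summed to 509 to 519 and 607 to 631 in HSCs and 932 to 984 and 942 to 973 in LSK cells. With RBCs in HSCs 1 of the 4 was above 0 (median -0.18), 1 passed as higher and 1 as lower, the latter by 2-fold. Cd34 was at 324 and 316 FPKM without RBCs and 476 and 455 with RBCs, and Cd48 at 42.7 and 40.5, then 16 and 22.8. T cell and B cell markers summed to at most 16.4 and 51.7 FPKM in any library. The part that a change in the mix of cells has in the values of the mitosis genes was not tested.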

How the data were processed

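Gene expression was measured by RNA sequencing of full-length cDNA in 8 libraries. The authors deposited FPKM values per gene, and the submitters' processing notes name TopHat2 2.1.1, Bowtie2 2.2.8, SAMtools 0.1.18, Cuffdiff 2.2.1 and the mouse build mm10; the annotation is not given in the sources used here. The library kit does not mark strand. Of the 42 genes, 9 have an exon that overlaps an exon of a gene on the other strand, and 2 one of another gene on the same strand. Beside those named above, Kif20a overlaps Cdc23 (37.6 to 46.5 FPKM) and Prc1 overlaps Rccd1 (9.08 to 11.6 FPKM) on the other strand. Nusap1 overlaps Oip5 (16 to 23.2 FPKM), about as high as Nusap1 itself (13.9 to 24.9 FPKM), and Cdc25b overlaps Spef1 (0.786 to 2.3 FPKM). Plk1 overlaps Gm44985 and Cdc25c overlaps Gm3550, for which no values were available. The 12003 genes that reached an FPKM of 1 in 2 or more libraries were tested with limma 3.58.1 in R 4.3.3 on log2(FPKM + 1), with a mean-variance trend and all 4 groups in 1 fit (4 residual and 5.18 prior degrees of freedom), and p-values were adjusted by the Benjamini-Hochberg method over all genes in each of 5 comparisons. "Passed" means an adjusted p under 0.05. All 42 genes are named by role, with values in every library for those past the threshold and those with the largest and smallest RBC effects; further genes shown this way were chosen after their values were seen. Pathway genes are named where they passed, a selection of them where many did, and by the 2 furthest from 0 per list where none did in HSCs. The members and lists were chosen with earlier results of these data known. The scripts were tested on simulated data. Alternatives covered scaling, filter, pseudocount, trend, samples in the fit, replicate number and each library left out. Tables were read with Python 3.11.15 and pandas 2.3.3. 1 item of the marker lists is not reported here.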

Additional observations from a re-analysis of the deposited data

How the results depend on the processing

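Over 36 pairs of a gene and a comparison, 642 values from other settings were computed: 591 kept their direction and their side of the threshold, 51 kept the direction but no longer passed, and 0 reversed. The pairs were genes past the threshold and those with the highest and lowest RBC effects or differences of effects. Only a pair that passed could lose the threshold, so the 51 all fall among passing pairs. The pooled count understates their share. With all libraries kept, Aurka in LSK cells minus HSCs without RBCs was lost with no filter, with only its own groups in the fit, and with no trend. In the same comparison with RBCs, Ccnb2, Plk1 and Ndc80 were each lost in several settings. Nuf2 was lost with no filter, and Aurkb on a TPM scale and with no trend. Rescaled to TPM, the median log2 difference of the 42 genes was 0.16 for the RBC effect in HSCs, -0.06 in LSK cells, 0.16 for LSK cells minus HSCs without RBCs and 0 with RBCs, where the medians of all genes were 0.025, 0.025, 0.051 and 0.052. After quantile normalization the last 2 were 0.07 and -0.09. With no fold threshold the calls were 1 higher with RBCs in HSCs, 5 higher in LSK cells without RBCs, and 4 higher and 9 lower with RBCs. At a limma adjusted p under 0.1, further genes passed. Aurkb was lower with RBCs in LSK cells (0.070), and Ube2c was higher in the difference of the effects (0.095). For LSK cells minus HSCs without RBCs, Nusap1 (0.073) and Plk1 (0.094) were added as higher and Cks1b (0.068) as lower. With RBCs, Cdc20 (0.051) and Ube2c (0.063) were added as higher. The cause was not tested.

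With each library left out in turn, which leaves 1 group with a single library assumed to vary like the others, the number higher with RBCs in HSCs was 0 to 1, and it was 0 without the first HSC library with RBCs. The number in LSK cells minus HSCs was 4 to 5 higher and 0 to 1 lower without RBCs, and 3 to 6 higher and 3 to 9 lower with RBCs, with 0 to 1 lower by 2-fold. The medians ran from 0.07 to 0.17 for the RBC effect in HSCs, -0.09 to -0.07 in LSK cells, 0.17 to 0.24 for their difference, 0.08 to 0.12 for LSK cells minus HSCs without RBCs and -0.10 to -0.02 with RBCs. Counts of genes above 0 under other scalings and omissions were added after seeing the data.

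Replicate numbers were shared across groups, and the deviations of same-numbered libraries correlated at -0.07 to 0.10 over all genes. Such weak values cannot show whether same-numbered libraries shared a mouse, culture or sort, and the labels do not say. With a replicate block, Ccnb2, Plk1 and Ndc80 no longer passed in LSK cells minus HSCs with RBCs (limma adjusted p = 0.067, 0.062 and 0.064). With 2 libraries per group, outlying libraries were not looked for within groups, and the absolute depth is unknown.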
